A study of Mus musculus with 12 samples.

Results

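The 9 acinar digestive enzyme genes Prss2, Ctrb1, Cela2a, Cela3b, Cpa1, Cpb1, Pnlip, Cel and Clps were followed through RNA-seq libraries of mouse pancreatic islets, as a readout of the exocrine transcripts that came with the islets. They were taken by gene symbol from the 54532 Ensembl genes that every deposited count table lists, and all 9 were found and passed the filter on low counts. The study set islets of male C57BL/6 mice with a pancreatic beta cell selective Sirt3 knockout (KO) against wild type (WT) islets under 2 diets, with 3 libraries per group and 12 in all. The groups were KO and WT on a high fat diet with 60% of its calories from fat (HFD KO, HFD WT), and KO and WT on a standard diet with 6.2% fat (STD KO, STD WT). All mice are labelled as 40 weeks old. High fat feeding lasted 36 weeks in both genotypes, after 6, 5 and 6 weeks of standard food in HFD KO 1, 2 and 3 and after 4 weeks in HFD WT. These periods add up to 42, 41 and 42 weeks in HFD KO 1, 2 and 3, which conflicts with their labelled age, and to 40 weeks in HFD WT. Genotype, the earlier period and a possible difference in age therefore cannot be told apart within the high fat groups. The promoter that drives the deletion, and whether a library came from 1 mouse or from several, are not given in the labels; if the 3 libraries of a group are not from separate mice, the p-values measure a spread that may be technical. Islets were freed with collagenase infused through the bile duct and separated from the rest of the digest on a density gradient.

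Acinar cells make up most of the pancreas and fill their zymogen granules with digestive enzymes, most of them as inactive precursors that are activated in the gut. Their enzyme mRNAs are among the most abundant of any tissue, so that a few acinar cells left on isolated islets are visible in islet RNA. In these cells the PTF1 complex, built from PTF1A, an E-protein and RBPJL, binds a paired element in enzyme gene promoters that joins an E-box to a TC-rich box.

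To show what these genes share in sequence, promoters of 300 bases (250 before and 50 after the transcript start, RefSeq, GRCm38.p6) were searched on both strands for the E-box CACCTG and the TC box TTTCCC. Of the 9 genes, 8 have an entry, and the exception is Clps. CACCTG was present in 5 of these 8 promoters and in 20.2% of all 32851 promoters, TTTCCC in 5 of 8 and in 25.2% of all, and both in 3 of 8 (Prss2, Cela2a and Cel) and in 4.86% of all. The motifs do not overlap in letters. Such a match describes these letters in this window and is not a binding site. The 3 promoters with both motifs are printed with that of Cela3b, the member whose level departed most from the others. Capitals mark both motifs, read on the printed strand or as their reverse complements. Prss2 lies at chr6:41521526-41521825 on the plus strand, and Cela2a at chr4:141825956-141826255, Cel at chr2:28563354-28563653 and Cela3b at chr4:137430471-137430770 lie on the minus strand.
Prss2: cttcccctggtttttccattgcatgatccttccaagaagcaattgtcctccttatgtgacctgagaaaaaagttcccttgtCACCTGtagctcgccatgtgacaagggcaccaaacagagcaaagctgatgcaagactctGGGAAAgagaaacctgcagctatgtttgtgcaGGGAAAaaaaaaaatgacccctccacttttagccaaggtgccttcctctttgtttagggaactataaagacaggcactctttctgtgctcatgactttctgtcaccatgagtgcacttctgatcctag
Cela2a: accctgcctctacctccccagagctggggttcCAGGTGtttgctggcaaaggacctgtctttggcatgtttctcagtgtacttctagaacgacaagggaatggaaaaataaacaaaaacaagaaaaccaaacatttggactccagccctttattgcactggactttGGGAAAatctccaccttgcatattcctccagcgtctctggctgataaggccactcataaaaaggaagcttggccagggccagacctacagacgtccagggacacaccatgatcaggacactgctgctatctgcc
Cel: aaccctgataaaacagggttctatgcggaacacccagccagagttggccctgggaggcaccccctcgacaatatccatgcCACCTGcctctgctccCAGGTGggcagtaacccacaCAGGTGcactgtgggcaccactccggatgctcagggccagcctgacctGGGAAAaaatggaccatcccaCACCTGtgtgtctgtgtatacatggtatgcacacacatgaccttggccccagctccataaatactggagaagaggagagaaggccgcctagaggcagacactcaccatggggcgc
Cela3b: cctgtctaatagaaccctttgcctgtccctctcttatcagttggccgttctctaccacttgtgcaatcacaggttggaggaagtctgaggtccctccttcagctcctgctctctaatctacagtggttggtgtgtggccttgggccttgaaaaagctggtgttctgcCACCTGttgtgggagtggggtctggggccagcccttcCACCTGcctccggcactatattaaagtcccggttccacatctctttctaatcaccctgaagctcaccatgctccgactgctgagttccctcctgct

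The libraries held 16037709 to 20864920 counts each. The insulin genes Ins1 and Ins2 took 19.7% to 33.5% of the counts, as fits the labelled tissue. Sirt3 stood at 7.20, 10.4 and 6.65 CPM (counts per 1000000 counts of the library) in HFD KO 1, 2 and 3, against 9.48 to 11.6 CPM in HFD WT, and at 6.07 to 7.29 CPM in STD KO, against 9.57 to 10.9 CPM in STD WT. The library labelled HFD KO 2 thus lay within the WT range. Values without it are given for some results only, and the means and SDs of HFD KO include it. Non-beta cells keep Sirt3 in this design.

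The enzymes were present in every library at high levels that differed widely. Together the 9 genes took 1.75 ± 0.361% of the counts in HFD KO and 2.58 ± 0.749% in HFD WT, and 1.75 ± 0.857% in STD KO and 1.77 ± 1.09% in STD WT (mean ± SD, n = 3 each). By library the share was 1.38%, 1.75% and 2.10% in HFD KO 1 to 3 and 1.72%, 2.98% and 3.05% in HFD WT 1 to 3. It was 1.89%, 0.830% and 2.53% in STD KO 1 to 3 and 2.57%, 2.21% and 0.523% in STD WT 1 to 3. The highest library, HFD WT 3, thus held 5.84 times the share of the lowest, STD WT 3, and the libraries of all groups overlapped. The exact 95% binomial interval, which covers counting error only, ran from 0.520% to 0.526% in STD WT 3 and from 3.05% to 3.06% in HFD WT 3. In bulk RNA, fewer acinar cells and less enzyme mRNA per acinar cell cannot be told apart.

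**Figure D1:**
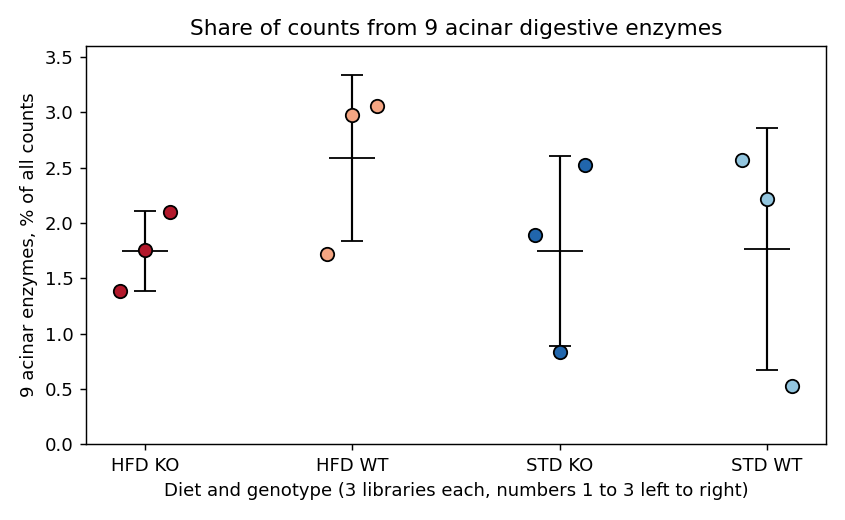
Share of all counts (%, from 0) that came from the 9 acinar enzymes, 1 point per library, with the group mean and SD as a bar (n = 3). STD WT 3 (0.523%) and STD KO 2 (0.830%) are the lowest points, and the 4 groups overlap.

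Per unit of transcript length, in the authors' FPKM, the chymotrypsinogen Ctrb1 led in all 12 libraries. It averaged 4765 ± 1475 FPKM in HFD KO and 7704 ± 2075 FPKM in HFD WT, and 4984 ± 2520 FPKM in STD KO and 5152 ± 3304 FPKM in STD WT (SD, n = 3 each). Over the 12 libraries the order of mean FPKM was Ctrb1 (5651), the elastase Cela2a (3044), the anionic trypsinogen Prss2 (2539), pancreatic lipase Pnlip (1871), carboxypeptidase A1 Cpa1 (1568), the lipase cofactor Clps (1551), the elastase Cela3b (1424), the bile salt-activated lipase Cel (1403) and carboxypeptidase B1 Cpb1 (1386). Ctrb1 exceeded Cela2a, and Prss2 exceeded Pnlip, in 12 of 12 libraries, and Cela2a exceeded Prss2 in 10. Among the last 5 genes, Clps exceeded Cela3b in 11 libraries, but Cpa1 exceeded Clps in 6, Cela3b exceeded Cel in 5 and Cel exceeded Cpb1 in 7, so these neighbours do not differ beyond their spread. Ctrb1 made up 21.6% to 29.6% of the summed FPKM of the 9 genes in a library. Cela3b had the widest range of shares, 5.05% to 13.5%, with its highest share in the library labelled HFD KO 2 and its lowest in STD WT 2.

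**Figure D2:**
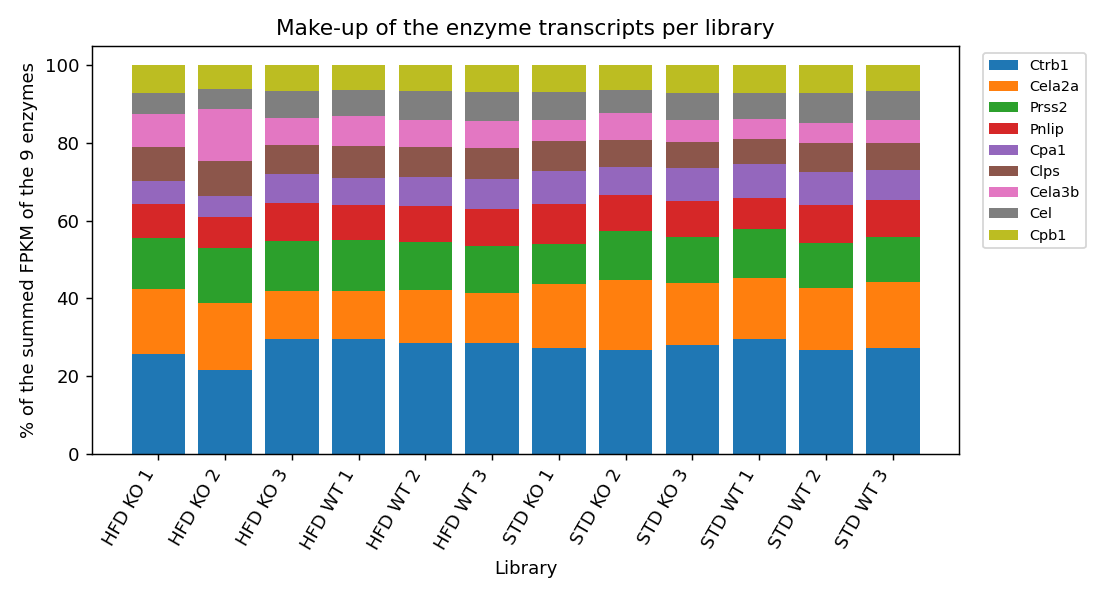
Make-up of the enzyme transcripts: each bar is 1 library and its segments are each gene's percent of the summed FPKM of the 9 genes. Ctrb1 is the largest segment in all 12 libraries (21.6% to 29.6%), and Cela3b is widest in HFD KO 2 (13.5%).

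The precursors of the endopeptidases moved up and down together between libraries. Ctrb1 had 3312, 3568 and 5672 CPM in HFD KO 1 to 3, 4663, 7733 and 7897 CPM in HFD WT 1 to 3, 4638, 2044 and 6445 CPM in STD KO 1 to 3, and 6926, 5345 and 1300 CPM in STD WT 1 to 3. Prss2, whose product activates the other precursors once it has been cleaved, had 1573, 2175 and 2297 CPM in HFD KO 1 to 3, 1933, 3162 and 3147 CPM in HFD WT 1 to 3, 1670, 886 and 2551 CPM in STD KO 1 to 3, and 2750, 2159 and 522 CPM in STD WT 1 to 3. Both genes were lowest in STD WT 3 and next lowest in STD KO 2, and their groups overlapped. The elastase Cela2a had 1847, 2469 and 2003 CPM in HFD KO 1 to 3, 1675, 3176 and 3061 CPM in HFD WT 1 to 3, 2436, 1191 and 3116 CPM in STD KO 1 to 3, and 3216, 2768 and 690.0 CPM in STD WT 1 to 3. The elastase Cela3b had 1173, 2412 and 1442 CPM in HFD KO 1 to 3, 1316, 2114 and 2112 CPM in HFD WT 1 to 3, 1005, 567 and 1376 CPM in STD KO 1 to 3, and 1327, 1097 and 313 CPM in STD WT 1 to 3. The elastases thus shared the low libraries, but their highest libraries differed, STD WT 1 for Cela2a and the library labelled HFD KO 2 for Cela3b.

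The exopeptidases and the lipases were low in the same libraries. The lipase Cel, which splits cholesterol esters and other lipids in the presence of bile salts, had 1049, 1258 and 1946 CPM in HFD KO 1 to 3, 1600, 2987 and 3087 CPM in HFD WT 1 to 3, 1827, 682 and 2347 CPM in STD KO 1 to 3, and 2302, 2287 and 517 CPM in STD WT 1 to 3. Cpa1, which removes amino acids from the carboxyl end of peptides, had 1008, 1163 and 1865 CPM in HFD KO 1 to 3, 1477, 2638 and 2811 CPM in HFD WT 1 to 3, 1905, 741 and 2581 CPM in STD KO 1 to 3, and 2727, 2239 and 487 CPM in STD WT 1 to 3. In both genes HFD KO 3 was the only HFD KO library above HFD WT 1. Pnlip, the main enzyme of triglyceride digestion, ranged from 761 to 4481 CPM, Clps from 183 to 1212 CPM and Cpb1 from 458 to 2725 CPM, each lowest in STD WT 3 and highest in HFD WT 3. Over all 9 genes, STD WT 3 was the lowest library for 9, and HFD WT 3 was the highest for 6.

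**Figure D3:**
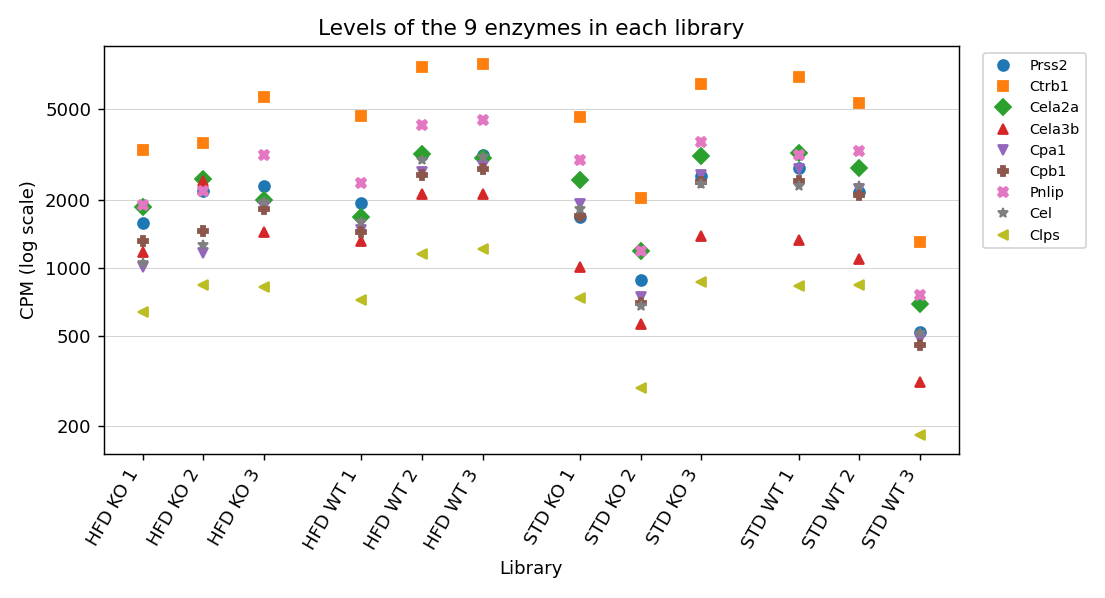
CPM (log axis) of each enzyme in each library, 1 symbol per gene. All 9 symbols drop together in STD WT 3 and STD KO 2, and Cela3b stands above its usual place in HFD KO 2.

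The spread of a single gene over the 12 libraries was therefore much larger than the spread of its ratio to the others. The SD of log2 CPM was 0.64 (Cela2a) to 0.84 (Cela3b), while the SD of a gene's log2 CPM minus the mean log2 CPM of the 9 genes was 0.086 for Cpb1, 0.111 for Prss2, 0.112 for Pnlip, 0.130 for Ctrb1, 0.145 for Clps, 0.182 for Cel, 0.207 for Cela2a, 0.221 for Cpa1 and 0.384 for Cela3b. The median of the second SD over the 13098 genes compared was 0.797. A member is part of the mean it is set against, which lowers its value somewhat. Among the 10 other genes with the pattern most like this one over the 12 libraries were Rnase1 (0.115), Erp27 (0.118), Ctrl (0.121), Pnliprp1 (0.136), 2210010C04Rik (0.171), 1810028F09Rik (0.177), Cuzd1 (0.204), Pnliprp2 (0.205) and Klk1 (0.236). Of those named, all but 2210010C04Rik and 1810028F09Rik stand in a list of acinar genes. Rnase1 encodes a secreted ribonuclease, Ctrl a chymotrypsin-like protease, and Pnliprp1 and Pnliprp2 relatives of pancreatic lipase. Libraries share depth and mixing with islet RNA in all these values, so they describe likeness and carry no test.

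Not all acinar genes followed the enzymes. Rab3d, a GTPase of secretory granules in several cell types, ranged from 173 to 307 CPM, and the transcription factor Bhlha15 from 30.9 to 131 CPM. Relative to 1000 counts of the 9 enzymes, Rab3d stood highest in STD WT 3 (33.6) and STD KO 2 (28.7), the libraries with the fewest enzyme counts, against 6.43 to 18.1 in the other 10 libraries. The PTF1 subunit gene Ptf1a had 1 to 14 counts in a library, too few for the filter. Its partner Rbpjl had 0.371 to 4.24 CPM.

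The knockout was compared with wild type under each diet, to ask whether exocrine transcripts differ by genotype. On the high fat diet 0 of the 9 enzymes passed an adjusted p of 0.05, either way, against 7.4% of the 16076 genes tested (edgeR quasi-likelihood test, Benjamini-Hochberg over all genes). All 9 fold changes were negative and smaller than about 2 standard errors. The log2 fold change was -0.85 ± 0.53 for Cel (adjusted p = 0.349), -0.78 ± 0.55 for Cpa1 (0.413), -0.70 ± 0.51 for Ctrb1 (0.434) and -0.62 ± 0.49 for Pnlip (0.478). It was -0.54 ± 0.52 for Cpb1 (0.574), -0.43 ± 0.49 for Prss2 (0.635), -0.40 ± 0.49 for Clps (0.666), -0.29 ± 0.48 for Cela2a (0.759) and -0.11 ± 0.47 for Cela3b (0.923; ± SE throughout). The median of the 9 was -0.54, beside -0.0024 over all genes tested, and it was -0.55 without the library labelled HFD KO 2, while Cela3b then stood at -0.53. The HFD KO and HFD WT libraries overlapped for each of the 9 genes, while 13.2% of all genes lay wholly higher and 8.81% wholly lower in HFD KO. The labels name no pairs, but same-numbered libraries of these groups deviated together (correlations 0.515, 0.410 and 0.336), so pairs by number were inferred from these same data. Libraries of different numbers and diets correlated as strongly (0.518 for HFD WT 2 and STD WT 1), so the pairs are uncertain and no independent support. Within these inferred pairs the summed share of the enzymes was lower in HFD KO each time (1.38% against 1.72%, 1.75% against 2.98% and 2.10% against 3.05% in HFD WT). CPM was lower in HFD KO in all 3 pairs for 7 of the 9 enzymes and higher in all 3 for 0, against 21.2% and 23.8% of all genes; Cela2a and Cela3b were lower in 2 pairs. The enzymes move together, so these 7 are not separate observations, and with the replicate block within diets 0 of 9 were called (median log2 fold change -0.50, lowest adjusted p = 0.451 for Cel; edgeR). Without the block, 0 of the 9 reached an unadjusted p of 0.05, against 24.3% of all genes. DESeq2 called 0 of 9 against 1864 of all genes, and limma on log2(FPKM + 1) 0 against 1052.

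On the standard diet 0 of the 9 enzymes were called, against 1.71% of all genes tested (edgeR quasi-likelihood test). Their log2 fold changes ran from -0.22 to -0.03 with a median of -0.18, beside -0.02 over all genes, each with an adjusted p of 0.999. No member reached an unadjusted p of 0.05, against 8.66% of all genes. DESeq2 called 0 of 9 against 469 of all genes, and limma on log2(FPKM + 1) 0 against 288. The value of this comparison hangs on the lowest library of each group. Without STD WT 3 the median was -0.61, and without STD KO 2 it was 0.14. The genotype by diet interaction called 0 of 9, with 0% of all genes called and a median of -0.34 (edgeR quasi-likelihood test). Its lowest unadjusted p was 0.409 in edgeR, and 7.91% of all genes were under 0.05. DESeq2 called 0 of 9 against 24 of all genes, and limma on log2(FPKM + 1) 0 against 0.

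The diets were compared within each genotype. For high fat against standard diet in WT islets 0 of the 9 enzymes were called, with 0% of all genes called (edgeR quasi-likelihood test). DESeq2 called 0 of 9 against 37 of all genes, and limma on log2(FPKM + 1) 0 against 0. All 9 enzymes had positive fold changes in edgeR. The largest was Cela3b, with a log2 fold change of 1.07 ± 0.48, the only member under an unadjusted threshold of 0.05 (0.0484 in edgeR; adjusted 1), which 4.74% of all genes passed. The others were 0.77 ± 0.49 for Clps, 0.67 ± 0.49 for Pnlip, 0.65 ± 0.49 for Prss2, 0.63 ± 0.51 for Ctrb1, 0.63 ± 0.52 for Cel, 0.48 ± 0.52 for Cpb1, 0.39 ± 0.55 for Cpa1 and 0.29 ± 0.48 for Cela2a. The median was 0.63, beside 0.01 over all genes, and 0.20 without STD WT 3. No member separated the groups, against 3.45% of all genes wholly higher and 5.91% wholly lower in HFD WT.

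In KO islets 0 of the 9 enzymes were called, against 0.0435% of all genes (edgeR quasi-likelihood test). DESeq2 called 0 of 9 against 119 of all genes, and limma on log2(FPKM + 1) 0 against 2. None reached an unadjusted p of 0.05 in edgeR, against 12.5% of all genes. The median log2 fold change was 0.12, beside -0.03 over all genes, with 7 of 9 positive. It became -0.20 without STD KO 2. Cela3b was again the largest, at 0.99 ± 0.48 (adjusted p = 0.423), and 0.56 without the library labelled HFD KO 2. Pooled over both genotypes, a contrast added after the data were seen, 0 of 9 were called against 0.0249% of all genes, with a median of 0.37 and 1 unadjusted p under 0.05 (Cela3b, 0.0116; edgeR quasi-likelihood test), against 7.45% of all genes. The pooled contrast reuses the same 12 libraries and is no independent support for the contrasts within a genotype.

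**Figure D4:**
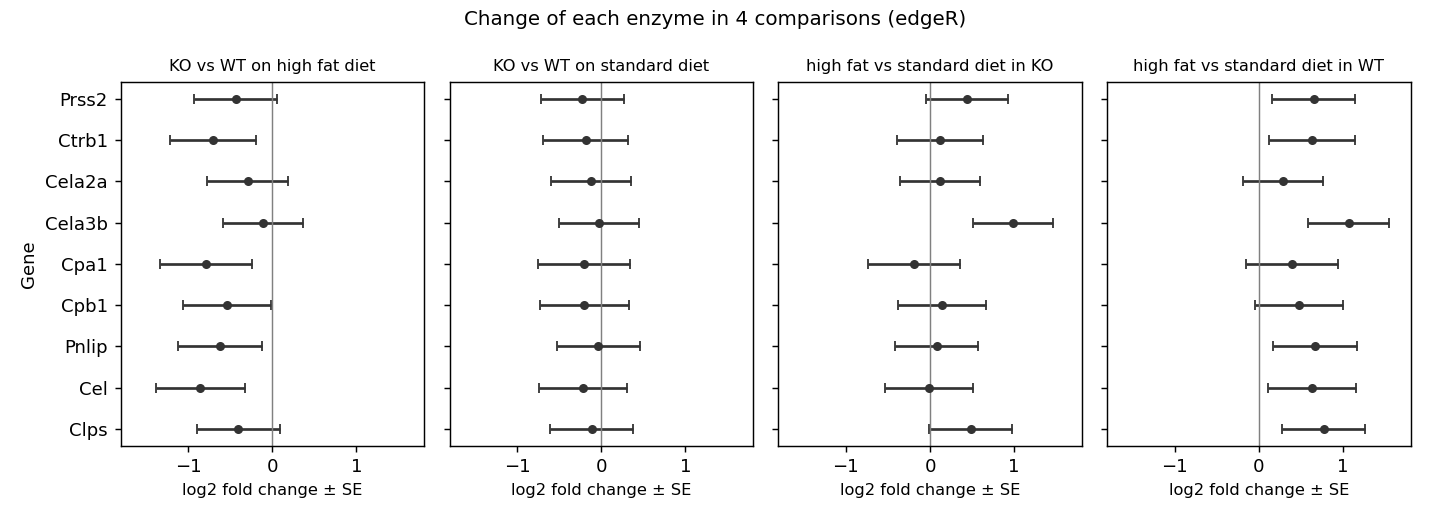
log2 fold change of each enzyme (points) with its SE (bars) in 4 comparisons from the edgeR fit. All 9 points are negative for KO against WT on the high fat diet (median -0.54), all 9 are positive for high fat against standard diet in WT (median 0.63), and none passed the threshold.

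Lists of markers of other cells were summed beside these values. Ductal markers summed to 737 to 945 CPM in HFD KO and 476 to 1150 CPM in HFD WT, and to 842 to 971 CPM in STD KO and 605 to 2041 CPM in STD WT. The highest sum was in STD WT 1, where the duct keratin Krt19 stood at 178 CPM, a library in the upper part of the enzyme range but not at its top. Stellate markers summed to 199 to 615 CPM in HFD KO and 165 to 281 CPM in HFD WT, and to 318 to 450 CPM in STD KO and 254 to 392 CPM in STD WT. Macrophage markers summed to 212 to 239 CPM in HFD KO and 124 to 326 CPM in HFD WT, and to 233 to 306 CPM in STD KO and 174 to 224 CPM in STD WT. Endothelial markers summed to 241 to 462 CPM in HFD KO and 268 to 453 CPM in HFD WT, and to 410 to 476 CPM in STD KO and 281 to 525 CPM in STD WT. Beta cell markers summed to 264177 to 333217 CPM in HFD KO and 281905 to 362447 CPM in HFD WT, and to 214693 to 314233 CPM in STD KO and 267239 to 352784 CPM in STD WT. Alpha cell markers summed to 14110 to 32109 CPM in HFD KO and 17549 to 24133 CPM in HFD WT, and delta and PP markers to 4037 to 9368 CPM in HFD KO and 3875 to 8182 CPM in HFD WT. On the standard diet the alpha sums were 20217 to 26530 CPM in STD KO and 26391 to 33769 CPM in STD WT, and the delta and PP sums 6277 to 6599 CPM in STD KO and 4823 to 7216 CPM in STD WT. All members of the 7 lists had counts in every group. On the high fat diet C1qb (log2 fold change 1.01 ± 0.19, adjusted p = 0.00896) and C1qc (1.10 ± 0.26, adjusted p = 0.0245), complement genes of macrophages, rose in KO against WT islets (edgeR). They were 2 of the 7 macrophage markers, and 7.4% of all genes tested passed in this contrast. Of the 7, 6 had positive and 1 a negative fold change, from -0.47 to 1.10 with a median of 0.91. C1qa, also in that list, averaged 75.6 CPM in HFD KO and 70.8 CPM in HFD WT. The beta cell peptide gene Ucn3 fell (-1.13 ± 0.19, adjusted p = 0.00459), the only one of the 9 beta cell markers to pass; 6 of the 9 had negative and 3 positive fold changes, from -1.13 to 0.83 with a median of -0.38. The C1qc call was lost without HFD WT 1, 2 or 3 or HFD KO 1 in turn (highest adjusted p = 0.114). The part of any of these cells in the enzyme values was not tested.

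Relative to the 9 enzymes, some acinar transcripts lay apart by diet, although none of the 9 passed the test. This was noticed in the data and is given as a description. Set against the other 8, only 1 of the 9 enzymes, Cela3b, separated the diets, and the rest overlapped. The CPM levels of the elastases lay closer together on the high fat diet. The ratio of Cela3b to Cela2a CPM was 0.777 ± 0.178 in HFD KO and 0.714 ± 0.063 in HFD WT, and 0.444 ± 0.032 in STD KO and 0.421 ± 0.029 in STD WT (SD, n = 3 each). By library it was 0.635, 0.977 and 0.720 in HFD KO 1 to 3 and 0.785, 0.666 and 0.690 in HFD WT 1 to 3. It was 0.413, 0.476 and 0.442 in STD KO 1 to 3 and 0.413, 0.396 and 0.453 in STD WT 1 to 3, so all 6 high fat libraries lay above all 6 standard diet libraries, with or without HFD KO 2. Relative to 1000 counts of the other 8 enzymes, Cela3b had 73.6 as its lowest, 79.6 as its median and 160 as its highest value in the 6 high fat libraries. The lowest, median and highest values in the 6 standard diet libraries were 52.2, 56.9 and 73.3. The groups did not overlap, but the gap between STD KO 2 and HFD KO 3 was narrow.

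Relative to the 9 enzymes (the other 8 for a member), all 6 high fat libraries lay above all 6 standard diet libraries for 2 of the 16076 genes, 0.0124%. These were Cela3b and Sycn, which encodes the zymogen granule protein syncollin. The enzyme share itself varied 4.91-fold within STD WT, so a gene that does not follow the enzymes can hardly separate upward on this scale. The share over all genes is therefore no fair background, and that both genes are acinar is no separate result. Sycn had 29.9, 30.7 and 41.4 counts per 1000 enzyme counts as lowest, median and highest value in the high fat libraries, and 15.9, 19.3 and 20.6 in the standard diet libraries. In the opposite direction the libraries separated for 78 genes, 0.485%, of which 9 stand in the acinar lists: Prss3, Amy1, Amy2a5, Amy2b, Pnliprp2, Pla2g1b, Klk1, Gp2 and Reg2. They were picked out by their values. Gp2, the main glycoprotein of the zymogen granule membrane, had 3.33, 4.21 and 5.08 per 1000 on the high fat diet, against 8.92, 10.3 and 11.9 on the standard diet (lowest, median, highest). Pla2g1b, a secreted phospholipase, had 0.847, 0.948 and 1.06 on the high fat diet, against 1.70, 1.96 and 2.26 on the standard diet.

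The starch-splitting amylases were few in these libraries and lower relative to the other enzymes on the high fat diet. The counts of Amy1, Amy2a5 and Amy2b together came to 0.398 ± 0.048 per 1000 enzyme counts in HFD KO and 0.288 ± 0.105 in HFD WT, and to 1.31 ± 0.114 in STD KO and 0.9996 ± 0.151 in STD WT (SD, n = 3 each). These sums rest on 93, 101 and 183 counts in HFD KO 1 to 3, 70, 197 and 145 in HFD WT 1 to 3, 448, 202 and 538 in STD KO 1 to 3 and 542, 304 and 112 in STD WT 1 to 3. No library of one diet reached the other diet's range. Amy2a3, whose 100-base windows are all shared with other amylase copies, had 286 counts in STD KO 3 and 0 in the other 11 libraries. With it, a sum added after the data were seen, STD KO 3 had 824 counts in place of 538, the mean in STD KO was 1.52 ± 0.255 per 1000, and the diets still did not overlap. Of the 100-base windows of its transcripts, 44.3% in Amy2a5, 11.4% in Amy2b and 30.8% in Amy1 are shared with another gene, the amylase copies Amy2a2, Amy2a3 and Amy2a4 or, for Amy1, Rnpc3, so the split between them is uncertain and the low level may miss reads that match several copies.

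An edgeR fit scaled to the enzyme counts, also added after the data were seen, put these ratios beside all genes. With the diets pooled over genotypes it called 202 of 16076 genes, 1.26%, all lower on the high fat diet, while the median of all genes fell by 0.78 on the log2 scale. Of the acinar lists, 3 genes were among them. Reg2, a regenerating-islet-derived protein gene that islets can also express, changed by -2.39 ± 0.53 (adjusted p = 0.00193), Amy2a5 by -2.17 ± 0.57 (0.0176) and Reg3b by -1.83 ± 0.51 (0.0346). Amy1 at -1.76 ± 0.53 (0.0590), Amy2b at -1.62 ± 0.52 (0.10), Gp2 at -1.31 ± 0.52 (0.255), Pla2g1b at -1.03 ± 0.50 (0.255), Cela3b at 0.63 ± 0.54 (0.312) and Sycn at 0.80 ± 0.53 (0.255) did not pass, although their libraries did not overlap. The Amy2a5 call was lost without STD KO 2, HFD WT 1, HFD WT 3, HFD KO 2 or HFD KO 3 in turn (adjusted p 0.00163 to 0.149 over the 12 omissions). Reg2 passed in each of the 12 omissions (highest adjusted p = 0.0412). Reg3b, an acinar stress response gene, stood at 156 CPM in STD KO 3 and at 22.7 CPM or less in the other 11 libraries, and without STD KO 3 its value was -0.92 (adjusted p = 0.193). Its call was lost in 8 of the 12 omissions, all but those of STD WT 2, STD KO 1, STD KO 2 and HFD WT 1.

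**Figure D5:**
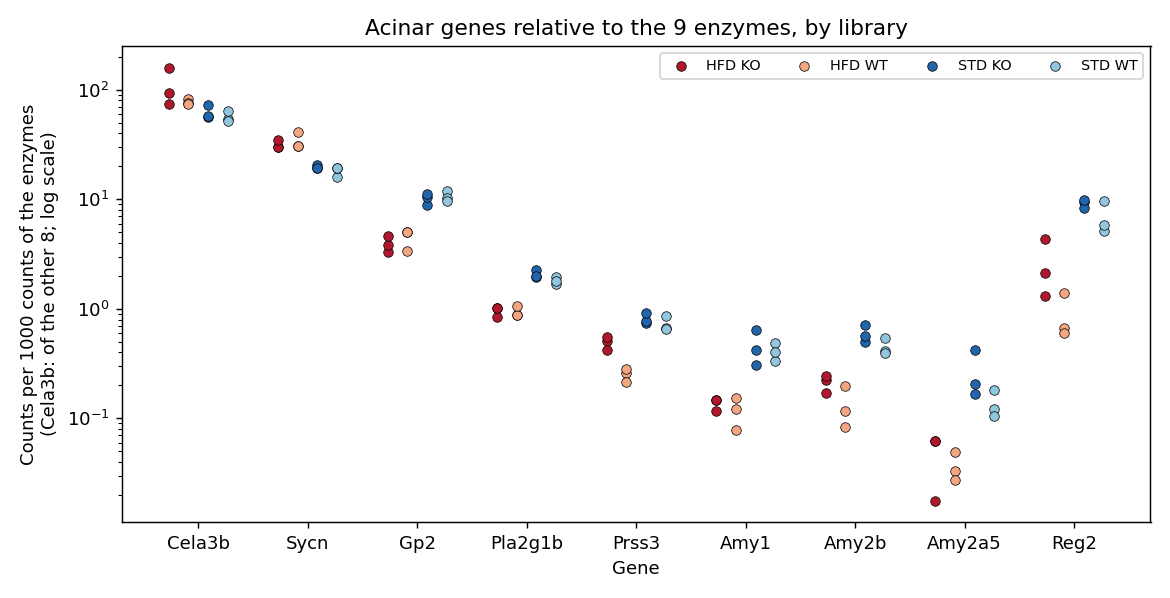
Counts of 9 acinar genes per 1000 counts of the 9 enzymes (of the other 8 for Cela3b; log axis), 1 point per library in 4 groups. Cela3b and Sycn lie higher, and Gp2, Pla2g1b, Prss3, the amylases and Reg2 lower, in all 6 high fat libraries than in all 6 standard diet libraries.

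Taken against library size instead, as in the main test, 0 of the further acinar genes passed in any of the 5 contrasts (edgeR quasi-likelihood test, adjusted p of 0.05). At an unadjusted p of 0.05, 3 of 36 passed for high fat against standard diet in WT (4.74% of all genes), 5 of 36 in KO (12.5% of all genes) and 0 in the other 3 contrasts. In KO that share is about that of all genes. For the pooled diets edgeR called 0 of 36, with 6 at an unadjusted p of 0.05 (7.45% of all genes). These unadjusted counts moved with the setting. With only the groups compared, 10 of 36 passed for KO against WT on the high fat diet and 2 of 36 for the diets in WT. Without STD WT 3, 10 of 37 passed for the diets in WT and 12 of 37 for the pooled diets. In these settings 0 were called after adjustment. The unadjusted share of all genes was not taken there, so these counts cannot be read as a result about the acinar genes. In the main fit that share was already 24.3% for KO against WT on the high fat diet. DESeq2 called Amy2a5, lower on the high fat diet, for the diets in KO (0.859% of the genes given an adjusted p), and Amy2a5 and Reg2, lower, and Sycn, higher, for the pooled diets (0.501%), while limma called 0. Without HFD KO 3, edgeR called Amy2a5, lower, and Tmed6, higher, for the diets in KO, where 4.87% of all genes then passed. The 0 in the main test covers 16 of 22 other enzymes, 16 of 16 secretory, granule and Reg genes found and 4 of 5 transcription factors, those that passed the filter. The other enzymes had a median log2 fold change of -0.42 for KO against WT on the high fat diet and 0.25 for high fat against standard diet in WT. Cela1 and Try5, the most abundant of them, averaged 2586 and 1284 CPM over the 12 libraries. Sycn was the most abundant secretory gene, and its log2 fold change was 1.50 ± 0.47 in WT islets (adjusted p = 0.956) and 0.89 ± 0.46 in KO islets (adjusted p = 0.453) for high fat against standard diet.

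Sequence sharing bears on few of the 9 enzymes. Cpa1, Cpb1, Ctrb1, Pnlip, Cel and Clps share no window of 50 or 100 bases with another gene. Cela2a shares 13.0% of its 100-base windows with Ctrc and 15.6% of its 50-base windows with Ctrc or Casp9, and Cela3b 6.64% and 19.2% with Cela3a. Prss2 shares none of 100 bases and 7.83% of 50 bases, with Try10, Try4 and Try5. The read length is not given in the sources used here. Cela2a also overlaps Casp9 on the opposite strand, which had 2146 counts over the 12 libraries, and the counting strand is not given in the sources used here. Cela3b lies on chromosome 4 from 137420999 to 137430540 and Cela2a on the same chromosome from 141814962 to 141826160, both on the minus strand (GRCm38). The set spans chromosomes 2, 3, 4, 6, 8, 17 and 19, with Prss2 and Cpa1 both on chromosome 6.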

How the data were processed

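Each of the 12 libraries came with read counts per Ensembl gene and FPKM values, as deposited by the authors. Per the submitters' processing notes, reads were handled with TopHat2, Cufflinks and DESeq on mm10; the tool that counted reads, its strand setting and the annotation release are not stated there. FPKM served only to compare genes within a library; their authors' scaling is by length and library total. Symbols were joined by Ensembl ID (54409 of 54532 found), and coordinates come from GENCODE M21. CPM is the count over the library's total. The log2 CPM behind the SDs over libraries instead used TMM-scaled library sizes and a prior count of 2.

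Counts were tested with edgeR 4.0.16 (limma 3.58.1, R 4.3.3; DESeq2 1.42.0 as an alternative): filterByExpr (minimum count 10, minimum total 15) kept 16076 genes, TMM scaled libraries, and a robust quasi-likelihood fit had 1 mean per group. The Benjamini-Hochberg adjustment ran over all genes tested, and the threshold was 0.05. The scripts were tested on simulated data. Replicates differed by 26.6 to 101 times counting noise (chi-square per degree of freedom), and the 54 pairs of libraries from different groups by 24.4 to 138, so no library was counted as a repeat of another; 16037709 to 20864920 counts per library make spread between libraries, not counting, the limit.

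The enzymes and all lists were chosen with earlier results of these data known. Named were the 9 enzymes, per further acinar list up to 4 genes past the threshold or else the most abundant, the 10 genes most like the enzymes (smallest SD of the log2 ratio, mean of at least 2 CPM), and other cell type markers past the threshold. Some genes that these rules name are not reported here. Genes whose diets separate relative to the enzymes were named after their values were seen. Alternatives were another size factor, DESeq2, other filters, limma on log2(FPKM + 1) and log2(FPKM + 0.1), only the groups compared, TMM without acinar and hormone genes, left-out libraries and a replicate block. Pairs by number in the high fat groups were inferred from the data and are not in the labels. Same-numbered HFD KO and HFD WT libraries deviated together (correlations 0.515, 0.410 and 0.336), while in the other pairs of groups not all did. Libraries of different numbers could correlate as strongly, as HFD WT 2 and STD WT 1 did (0.518). The main fit left out Ptf1a and the other genes below the filter. The run without that filter and DESeq2 took all 29339 genes with a count.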

Additional observations from a re-analysis of the deposited data

How the results depend on the processing

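The count of enzymes called stayed at 0 in every contrast and in each alternative run, including the replicate block (0 called; median log2 fold change -0.50 for KO against WT on the high fat diet within diets and -0.54 over all groups, and -0.09 and -0.20 on the standard diet); the block changed no call of an enzyme. Leaving out each library in turn moved the median from -0.74 to -0.37 for KO against WT on the high fat diet, from -0.61 to 0.14 on the standard diet, from 0.20 to 0.85 for high fat against standard diet in WT, from -0.20 to 0.47 in KO, from -0.67 to 0.10 for the interaction and from 0.16 to 0.52 for the pooled diets. Over all enzymes and alternatives the sign differed from the main value in 47 of 207 values for KO against WT on the standard diet, 3 of 207 on the high fat diet, 4 of 198 for the diets in WT and 21 of 198 in KO. Of the single enzyme folds printed above, 3 changed sign: Cela3b for KO against WT on the high fat diet ranged from -0.534 to 0.083 (0.016 without HFD WT 3, 0.080 without HFD KO 1 and 0.083 without HFD KO 3), and for high fat against standard diet in WT Cela2a ranged from -0.13 (without STD WT 3) to 0.59 and Cpa1 from -0.050 (without STD WT 3) to 0.74; without STD WT 3 and HFD KO 2 together these were -0.144 and -0.064. Relative to the enzymes, Reg3g for KO against WT on the standard diet was 3.50 ± 0.89 and ranged from -1.20 (without STD KO 3) to 5.08. Under the replicate block the calls of Amy2a5 (adjusted p = 0.0981), Reg3b (0.311) and Reg3g (0.896) were lost and the pooled Reg2 call held (0.0210). The causes were not tested. With 3 libraries per group, the spread between libraries limits these comparisons more than counting error does.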

Other observations

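The Reg family of secreted lectins, which acinar cells raise under stress, was described only in part above. Reg3g had 77.9 CPM in STD KO 3 and 0.05 to 5.35 CPM in the other 11 libraries, and Reg3b was also highest there. Reg1, the most abundant of the family, did not follow these genes: per 1000 enzyme counts it had 28.3 ± 7.74 in HFD KO and 17.1 ± 1.70 in HFD WT, and 22.6 ± 0.94 in STD KO and 22.5 ± 2.65 in STD WT (SD, n = 3 each). Prss3, a trypsinogen, had 0.493 ± 0.068 per 1000 enzyme counts in HFD KO and 0.254 ± 0.037 in HFD WT, and 0.812 ± 0.093 in STD KO and 0.731 ± 0.118 in STD WT, with 45.0% of its 100-base windows shared with close trypsinogen copies. Cela1 in HFD KO 2, at 198 per 1000 enzyme counts, lay above its range of 104 to 155 in the other 11 libraries, the library in which Cela3b was also highest.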
